A study of Oryza sativa with 8 samples.

Results

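In wild type rice seedlings, 365 of the 59903 rows of the deposited gene count table had a drought mean within 1.5-fold of normal watering and a mean at least 1.6-fold lower after rewatering. They were chosen by measured values, on group means of CPM (the count of a row divided by the total of its library and scaled to 1000000). A row was taken when it had at least 5 CPM under normal watering, a drought mean within 1.5-fold of normal, and a recovery mean at or below the smaller of the normal and drought means divided by 1.6. Of all rows, 14199 reached the normal level, 6421 of these also had a drought mean inside the window, and 365 of those (5.68%) met the recovery limit. All 3 group means were used in the choice, so the levels and fold changes below describe the members and are not a test of them.

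The plants were Oryza sativa seedlings of the MH63 variety. Normal wild type seedlings (MH63-WT) were watered throughout, drought wild type seedlings went 15 days without water after 14 days of growth, and recovery wild type seedlings had the same drought followed by 4 days of watering. Each group had 2 libraries, each from pooled seedlings. By the labels these groups differed in watering alone, apart from the day of harvest. Normal and drought plants were harvested together and recovery plants 4 days later, and no normal plants of the later day were analysed here. Rewatering and greater plant age therefore cannot be told apart in what follows. The 6 wild type libraries held from 37400784 to 42894245 counts, and the members' summed recovery counts over both libraries ran from 140 upward with a median of 1199.

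Rice responds to water loss largely through the hormone abscisic acid. It closes stomata and, through bZIP and other transcription factors, induces protective genes while growth and photosynthesis genes are reduced. On rewatering the hormone is broken down and most of these changes are undone within days. Genes whose transcripts are reduced only after rewatering are not marked by the level in drought alone. Which processes the present members belong to is unknown. The count table pairs no ID with a gene name, and a search of 39387 annotated genes of another rice assembly found 0 of its IDs. An ID below therefore stands for a table row, and not for a known gene. The labels themselves may also not match the genes counted, since the 3789 rows labelled as chromosome 12 held only 0% to 0.0278% of the counts of a wild type library. No gene list, cell type marker or sequence was used for that reason, and the seedling tissue was not checked against markers.

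The drought osbzip23 libraries, from seedlings of a bZIP23 mutant labelled osbzip23, were left out. Across the 365 member rows their log2(CPM + 1) values correlated with those of the wild type libraries at r = 0.10 to 0.13, while among themselves the wild type libraries gave 0.97 to 0.99. Both osbzip23 libraries held 0 counts on 138 of the 365 rows. These values are across rows, which are not replicates, and they gave no reading of the members in the mutant. The rule chose rows by wild type means alone and bounded their ratios, so high wild type correlations were partly set by the choice. They are no yardstick for the osbzip23 libraries, which the rule did not use.

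Together the members made up 1.87% ± 0.0031 of all counts under normal watering, 2.21% ± 0.027 in drought and 0.996% ± 0.0052 in recovery (SD, n = 2 each). The median member stood at 29.7 CPM in normal, 35.7 CPM in drought and 15.5 CPM in recovery plants, as group means. By library, the median was 29.7 and 29.2 CPM in normal, 35.9 and 35.7 CPM in drought, and 15.7 and 16.0 CPM in recovery. The members thus held more of the counts in drought than under normal watering, and less in recovery than in either, with no overlap of libraries. The median ratio of recovery to normal was 0.552, and that of recovery to drought 0.449.

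**Figure D1:**
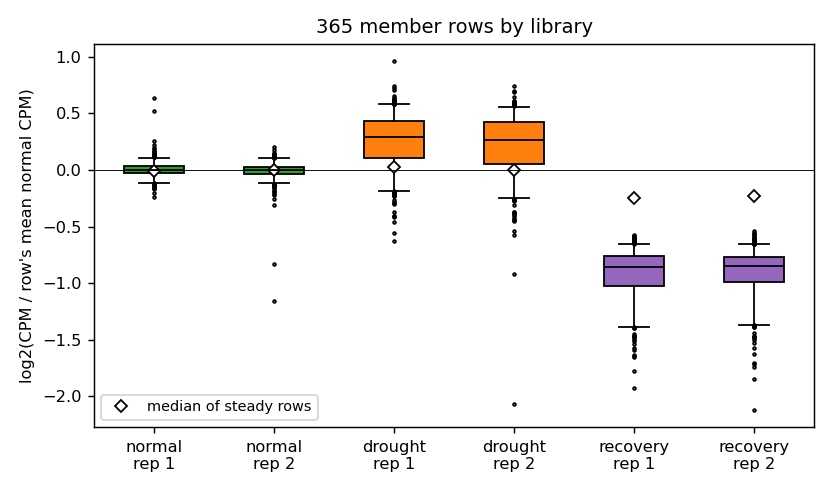
Log2 ratio of each member's CPM to its own mean normal CPM, for the 6 wild type libraries on the x axis. Boxes span the quartiles with the median as a line, whiskers reach the 5th and 95th percentiles, points lie beyond them, 1 value of 0 CPM in recovery is not drawn, and diamonds give the median of 5977 steady rows. Both drought boxes lie above 0 and both recovery boxes below 0, and the steady rows are below 0 in recovery too.

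The reduction in recovery was moderate in nearly all members. Measured from the smaller of the normal and drought means, it ran from 1.6-fold to 3.70-fold with a median of 1.79-fold. The lower and upper quartiles were 1.68-fold and 1.95-fold, and the 90th percentile was 2.18-fold. At least a 2-fold reduction was found in 77 members (21.1%) and at least 2.5-fold in 16, while no member reached 4-fold (0 of 365). Many members lay close to the limit. In 109 the reduction was under 1.7-fold, and in 182 further rows of the drought window it lay from 1.5-fold to just under 1.6-fold. The member nearest to the limit had 9.11 CPM in normal, 8.58 CPM in drought and 5.36 CPM in recovery, and the nearest row outside it had 5.66, 4.81 and 3.01 CPM.

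The row OsMH_09G0200100 had the largest reduction. It held 130.3 and 126.6 CPM in the normal libraries, 140.6 and 154.0 CPM in drought, and 33.8 and 35.6 CPM in recovery. Both drought values were above both normal values (log2 fold change 0.27 ± 0.06, edgeR adjusted p = 0.00115, and 0.0516 in the fit of all 8 libraries), and both recovery values were below all the others. Its log2 fold change was -1.70 ± 0.06 against normal (SE, edgeR quasi-likelihood test, adjusted p = 2.45e-09) and -1.97 ± 0.06 against drought (edgeR adjusted p = 1.97e-11). The row OsMH_02G0018200 held 327.7 and 364.9 CPM in normal, 527.5 and 435.6 CPM in drought, and 122.4 and 79.6 CPM in recovery. The groups did not overlap, but the recovery replicates were further apart than in OsMH_09G0200100. Its log2 fold change was -1.59 ± 0.15 against normal (edgeR adjusted p = 5.81e-06) and -2.14 ± 0.15 against drought (edgeR adjusted p = 4.43e-08).

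**Figure D2:**
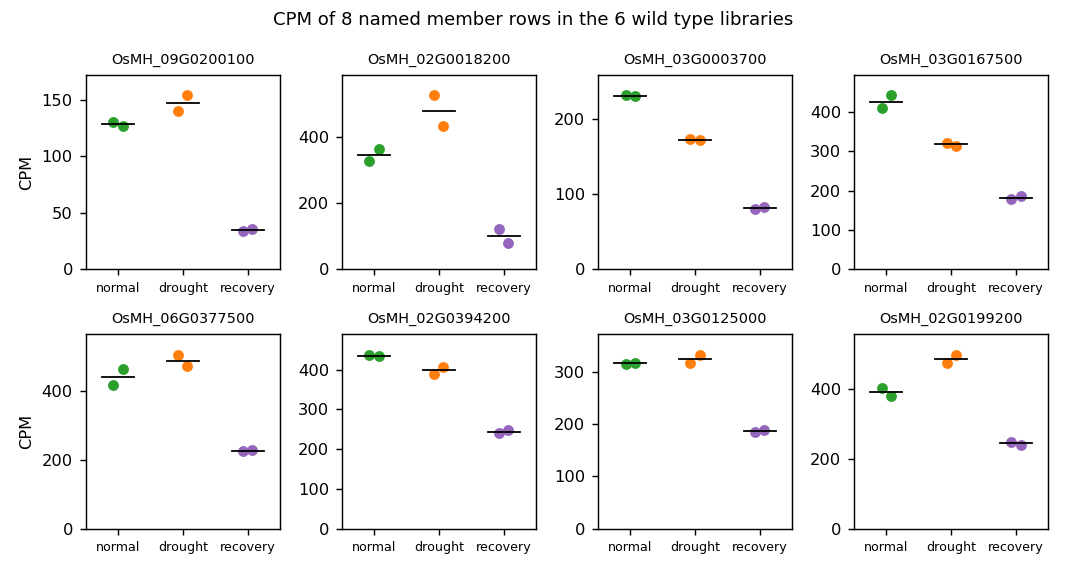
CPM (y axis, from 0) of 8 named member rows in the normal, drought and recovery wild type libraries; each point is 1 library and each line the mean of 2. The recovery points lie below all normal and drought points in every panel, while the drought points lie above the normal points, between normal and recovery, or mixed with normal.

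Abundant and scarce rows were both present. Normal levels ran from 5.05 to 440.1 CPM, with 46 members at 100 CPM or more. The 10 most abundant members held 18.3% of the members' summed normal CPM and the 50 most abundant 48.0%, so no few rows carried the total. The most abundant member ranked only 254th among all rows by normal CPM. Among rows inside the drought window, the share that were members was 7.23% at 5 to 10 CPM in normal plants, 5.73% at 10 to 20 CPM, 5.88% at 20 to 50 CPM, 4.75% at 50 to 100 CPM, 5.10% at 100 to 200 CPM and 5.04% above. The median reduction was between 1.73-fold and 1.85-fold in all 6 of these level classes. The share was highest in the lowest class, where counts are smallest, and it differed little among the others.

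The row OsMH_06G0377500 had the highest normal level of any member. Its values were 415.8 and 464.4 CPM in normal, 504.9 and 471.5 CPM in drought, and 226.9 and 227.4 CPM in recovery. The recovery libraries stood together at about the same level, below the 4 others. The log2 fold change was -0.76 ± 0.05 against normal and -0.99 ± 0.05 against drought (SE, edgeR adjusted p = 4.74e-07 and 3.39e-09). The row OsMH_02G0394200 came next, with 437.2 and 432.9 CPM in normal, 389.9 and 407.8 CPM in drought, and 240.2 and 248.6 CPM in recovery. Its drought values were slightly under its normal values, and the log2 fold change between them was -0.05 ± 0.04 (edgeR adjusted p = 0.336). Against normal and drought its recovery log2 fold changes were -0.64 ± 0.04 and -0.59 ± 0.04 (edgeR adjusted p = 3.82e-07 and 7.59e-08).

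Of the 365 members, 361 were called lower in recovery than under normal watering and 364 lower than in drought (edgeR quasi-likelihood test on all tested rows, adjusted p under 0.05). Over all 22898 tested rows, 16.7% were called lower against normal and 37.3% lower against drought. The rule used both contrasts, so these counts are no evidence beyond the choice of the members. All 365 members passed the filter on low counts. The median log2 fold change of the members was -0.67 against normal and -1.04 against drought, where the median of all tested rows was 0.00 and -0.01. In 363 members both recovery libraries were below all 4 normal and drought libraries, as was the case in 31.6% of tested rows.

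The 4 members that were not called against normal were named after their values were seen. The row OsMH_09G0260700 had 851 and 668 counts in normal, 1558 and 196 in drought, and 469 and 0 in recovery. Its drought and recovery replicates were far apart, and it was called in no comparison (edgeR adjusted p = 0.288 against normal and 0.144 against drought). Its log2 fold change against normal was -1.45 in the fit of all 6 libraries and -0.45 without the recovery library that held no count. The row OsMH_01G0487300 had 906 and 237 counts in normal, then 708 and 731 in drought and, after rewatering, 286 and 239. The second normal library was near the recovery libraries, so the groups overlapped (edgeR adjusted p = 0.108 against normal). Without the first normal library the fitted log2 fold change of this row against normal was 0.30, and without the second it was -1.51. The row OsMH_05G0260400 held 5.87 and 5.53 CPM in normal, 9.31 and 4.41 CPM in drought and 3.83 and 2.33 CPM in recovery (edgeR adjusted p = 0.111 against normal). The row OsMH_02G0356600 held 8.14 and 5.51 CPM in normal, 9.14 and 9.49 CPM in drought and 4.49 and 4.01 CPM in recovery (edgeR adjusted p = 0.0612 against normal). With library size scaling all 3 of OsMH_01G0487300, OsMH_05G0260400 and OsMH_02G0356600 were called lower against normal (edgeR adjusted p = 0.0458, 0.0401 and 0.0109). OsMH_05G0260400 was also called with the replicate number as a block (edgeR adjusted p = 0.034), in the fit of the 4 libraries compared (0.0179) and without either drought library (0.0257 and 0.0217), and OsMH_02G0356600 with a stricter count filter (0.0497). Without the second normal library OsMH_01G0487300 and OsMH_02G0356600 were called as well (edgeR adjusted p = 4.83e-05 and 0.00899). In OsMH_05G0260400 and OsMH_02G0356600 the recovery libraries were the lowest, and replicates of a group were up to 4.90 CPM apart.

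Most members were not level between normal watering and drought. The drought mean was above the normal mean in 304 of 365 members (83.3%), and the median ratio of drought to normal was 1.21. Of the rows between the limits, here called steady, 3097 of 5977 (51.8%) had the higher mean in drought, with a median ratio of 1.01. In 98 members drought was within 1.1-fold of normal, in 243 it was more than 1.1-fold higher and in 24 more than 1.1-fold lower. By the edgeR test 238 members were called higher in drought and 9 lower, while 118 were not called. Over all tested rows 35.3% were called higher and 37.3% lower in drought. The window bounded this contrast as well, so the counts are a description. Because the recovery limit was set from the smaller mean, a row below normal in drought had to reach a lower recovery level, relative to normal, than a row above it. The set's label of a reduction only after rewatering refers to the fold limits of the rule, and by the test 9 members were also lower in drought.

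The 238 members called higher in drought went from a median of 39.2 CPM in normal to 49.8 CPM in drought and 21.3 CPM in recovery. They held 1.36% ± 0.0049, 1.74% ± 0.023 and 0.748% ± 0.0011 of the counts of these groups (SD, n = 2 each). Their ratio of drought to normal ran from 1.03 to 1.5, and their ratio of recovery to drought had a median of 0.423. The row OsMH_02G0199200 was the most abundant of them that was not already named. It held 402.2 and 381.5 CPM in normal, 473.4 and 498.3 CPM in drought, and 248.0 and 240.9 CPM in recovery. Each group was apart from the others, with drought the highest (log2 fold change 0.39 ± 0.05 over normal, edgeR adjusted p = 1.25e-05) and recovery the lowest (-0.49 ± 0.05 against normal, edgeR adjusted p = 9.11e-06). The row OsMH_03G0125000 held 315.4 and 316.6 CPM in normal, 315.8 and 332.3 CPM in drought, and 184.6 and 189.1 CPM in recovery. Its drought and normal values overlapped, and its call (log2 fold change 0.11 ± 0.05, edgeR adjusted p = 0.0408) was lost under every alternative tried except the fit without the first drought library, with an adjusted p from 0.0569 with the replicate number as a block to 0.563 in the fit of all 8 libraries. Its log2 fold change in recovery was -0.57 ± 0.05 against normal (edgeR adjusted p = 1.52e-06), a call kept under all of them.

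The 118 members not called in drought had medians of 17.1, 18.2 and 9.13 CPM in normal, drought and recovery. Their ratio of drought to normal ran from 0.690 to 1.23, with a median of 1.02. Their levels were lower than those of the members called higher in drought, so the depth behind their comparison was smaller. A missing call does not show that drought and normal were equal in them.

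The 9 members called lower in drought stepped down at both stages. Their medians were 25.6 CPM in normal, 20.5 CPM in drought and 12.1 CPM in recovery, and recovery stood at 0.355 to 0.473 of normal. The row OsMH_03G0167500 held 409.3 and 441.7 CPM in normal, 321.4 and 313.1 CPM in drought, and 177.6 and 187.5 CPM in recovery. The row OsMH_03G0003700 held 231.4 and 230.4 CPM in normal, 173.4 and 171.7 CPM in drought, and 80.8 and 83.4 CPM in recovery. In both rows the 3 groups were fully apart, in the order normal, drought, recovery. Against normal the drought log2 fold change was -0.35 ± 0.05 in OsMH_03G0167500 and -0.34 ± 0.05 in OsMH_03G0003700 (edgeR adjusted p = 2.99e-05 and 1.88e-05). The recovery log2 fold change against drought was -0.68 ± 0.05 and -0.96 ± 0.05 (edgeR adjusted p = 4.45e-08 and 1.01e-09). The count of 9 was 3 without the first normal library and 5 without the second normal or the second drought library.

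**Figure D3:**
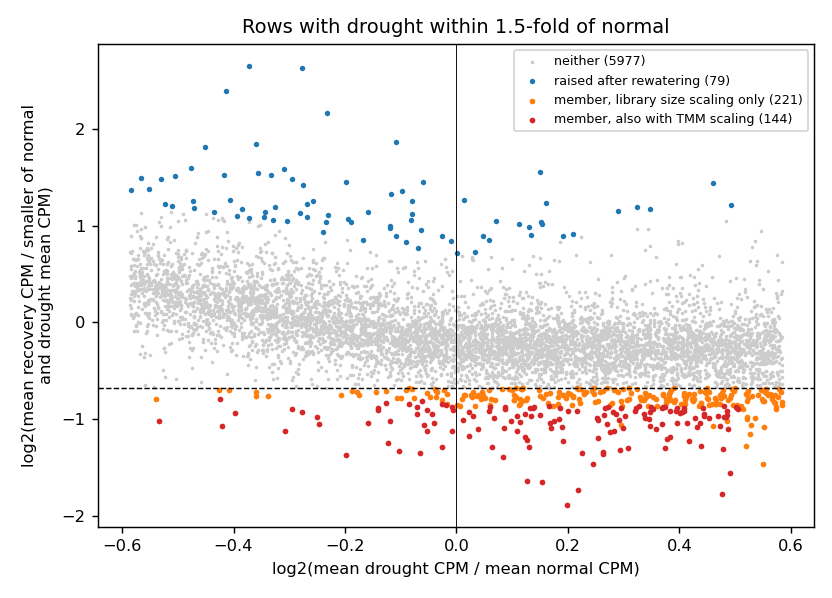
Each point is 1 of the 6421 rows with a drought mean within 1.5-fold of normal, placed by the log2 ratio of drought to normal (x axis) and of recovery to the smaller of the other means (y axis). The dashed line is the 1.6-fold limit; 144 red and 221 orange points are the members, of which 304 lie right of 0, and 79 blue points were raised after rewatering.

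Of the rows that met the normal and recovery limits, 365 were inside the drought window, 484 above it and 9 below it. The upper edge of the window thus divided rows that met the same other limits. The member nearest to that edge had 55.9 CPM in normal, 83.8 CPM in drought and 31.0 CPM in recovery, and the nearest row beyond it had 6.37, 9.57 and 3.78 CPM. At the lower edge the nearest member had 6.45, 4.44 and 2.57 CPM and the nearest row beyond it 5.91, 3.90 and 2.42 CPM. At the minimum normal level, the nearest member had 5.05 CPM in normal, 6.95 CPM in drought and 2.40 CPM in recovery, and the nearest row below it had 4.99, 4.96 and 2.92 CPM.

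The mirrored rule, with a recovery mean at least 1.6 times the larger of the other means, gave 79 rows. These raised rows took 0.403% ± 0.0048 of the counts in normal, 0.359% ± 0.0072 in drought and 0.855% ± 0.0078 in recovery (SD, n = 2 each). Their median normal level, 24.4 CPM, was near the 29.7 CPM of the members. In 20 of the 79 (25.3%) the drought mean was above normal, where the members had 83.3%. In both sets recovery mostly lay on the other side of normal from drought, which is a description of sets chosen on these means.

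The number of members rested on how the libraries were scaled. The 5977 steady rows, which no limit of the rule called lower, had a median ratio of recovery to normal of 0.850 by library size, and they took 35.0% ± 0.19 of all counts in normal, 35.2% ± 0.48 in drought and 30.4% ± 0.14 in recovery libraries (SD, n = 2 each). TMM scaling, which lines libraries up on the bulk of the rows, raised recovery by 0.19 against normal and by 0.11 against drought on the log2 scale. With the rule applied to TMM-scaled CPM there were 145 rows, of which 144 were members, and with median-of-ratios scaling 125 rows, of which 124 were members. The raised rows went from 79 to 147 and 149. More rows were lowered than raised by library size (365 and 79), and with TMM the counts were about even (145 and 147). On the TMM scale every member was lower in recovery, by 1.4-fold or more with a median of 1.58-fold. The 1.6-fold limit of the rule and a shift of at most 0.19 fixed this direction beforehand, so it is no check of the members. Of the members, 179 stayed inside the drought window but were reduced by less than 1.6-fold, and 39 left the window.

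**Figure D4:**
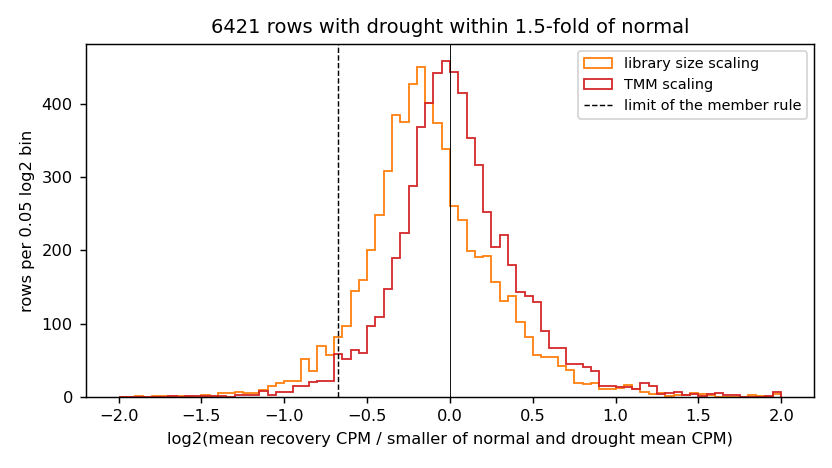
Number of rows (y axis) by the log2 ratio of mean recovery CPM to the smaller of the normal and drought means (x axis), for the 6421 rows inside the drought window, by library size and by TMM scaling; values beyond the axis are drawn at its ends. The TMM outline is shifted to the right, and fewer rows lie left of the dashed limit.

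The 144 members found under both scalings had medians of 25.8 CPM in normal, 29.8 CPM in drought and 11.7 CPM in recovery, and a median reduction of 1.98-fold, or 1.75-fold on the TMM scale. They made up 0.750% ± 0.0037, 0.844% ± 0.014 and 0.347% ± 0.0023 of the counts (SD, n = 2 each). Drought was above normal in 111 of them, 78 were called higher in drought, 5 lower, and 61 were not called. The other 221 members had a median reduction of 1.7-fold and a highest of 2.75-fold, drought above normal in 193, and 160 calls higher in drought. TMM scaling also moved drought against normal, and 39 of these left the drought window for it, so the drought counts of both sets are not compared.

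Replicates of the members were close. The median absolute log2 difference between the libraries of a group was 0.07 for normal plants, 0.09 for drought and 0.09 for recovery. In the steady rows it was 0.08, 0.09 and 0.08. Replicates more than 1.2-fold apart were found in 6.30% of members in normal, 9.04% in drought and 12.9% in recovery, against 6.93%, 7.56% and 6.37% of steady rows. The members' recovery values are over 364 rows, since the member with 0 counts in 1 recovery library, OsMH_09G0260700, was left out of them. The members were thus less even than steady rows in recovery, the group with their lowest counts. Among the 282 members whose replicates were within 1.2-fold in every group, 282 were called lower against normal and 282 lower against drought. In drought 200 of them were called higher and 7 lower. Over all 22898 tested rows these shares were 16.7% and 37.3% lower in recovery, and 35.3% higher and 37.3% lower in drought. The rule used these contrasts and close replicates favour a call, so the counts are no check of the members.

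Applied to the first replicates alone, the rule took 418 rows, 297 of them members. In the second replicates, which this choice did not use, 416 of the 418 had a recovery value below both other values (99.5%), and 266 were reduced by 1.6-fold or more (63.6%). Of the 6368 rows that the first replicates put inside the drought window, members or not, these shares were 62.9% and 5.76%. The median reduction was 1.80-fold in the replicates used and 1.71-fold in the others. Applied to the second replicates alone, the rule took 407 rows, of which 402 were lower and 271 reduced by 1.6-fold or more in the first replicates (98.8% and 66.6%), with medians of 1.79-fold and 1.72-fold. Of the 6372 rows inside the window by the second replicates the shares were 67.5% and 6.29%. The full rule was met by 230 rows in both replicates, each taken by itself. With 1 library a group there is no test of these values, and the other replicates came from the same treatments.

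Members stood on rows 2 to 40678 of the table, and the last row inside the drought window was row 40897. The rows after that one held 0% to 0.0770% of the counts of a wild type library. In consecutive blocks of 5000 rows they made up 3.95% to 7.17% of the rows inside the drought window. Where the row after a member was itself inside the window, it was a member in 7 of 81 cases (8.64%). At a distance of 2 rows this held in 8 of 81 cases (9.88%), at 5 rows in 3 of 77 (3.90%), at 10 rows in 3 of 60 (5.0%) and at 50 rows in 5 of 65 (7.69%). Of all rows inside the window 5.68% were members, and these differences were not tested. Since IDs are row labels only, nothing is read from this about places in the genome.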

How the data were processed

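Whole-number counts per gene ID, deposited by the authors in 1 table with 1 column per library, were used without change, per the file headers. Per the submitters' processing notes, StringTie 2.1.7, STAR 2.7.10a and fastp 0.23.0 were used upstream. The sources used here give no genome build, annotation, strand setting or rule for multi-mapped reads, so rows of near-identical or overlapping genes are uncertain.

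CPM used column totals. Tests used edgeR 4.0.16 in R 4.3.3 (TMM, filterByExpr, quasi-likelihood F-test, two-sided, 1 fit of 6 wild type libraries, 3 residual degrees of freedom), with Benjamini-Hochberg adjustment over 22898 rows. SE is the log2 fold change divided by the root of F. In simulated counts for recovery against normal over 22898 rows, 99 of 100 rows changed 1.6-fold and 100 of 100 changed 3-fold were called, with 8 false calls. The spread there was equal for all rows, and the other 22698 rows were unchanged. In the data 16.7% of tested rows were called lower against normal, so the simulated counts do not carry over to the data.

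The members, lists and alternatives were chosen with earlier results of these data known. The naming rule took, per comparison, at most 2 rows a direction, by size of reduction or normal level. The labels do not say that replicate numbers mark a batch of seedlings, so p-values measure the spread between these libraries. Alternatives were scalings, DESeq2 1.42.0, count filters, rule limits, the fit of all 8 libraries, fits of the 4 libraries compared, a replicate block, and each library left out. Python 3.11.15, NumPy 2.4.6 and pandas 2.3.3 were used.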

Additional observations from a re-analysis of the deposited data

How the results depend on the processing

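By library size 365 rows were members. This became 145 with TMM and 125 with median-of-ratios CPM, 549 with a minimum normal level of 1 CPM, 77 with a recovery factor of 2 and 197 with a narrower drought window. Leaving out 1 library or all libraries of a replicate number gave 363 to 418 rows. The rows themselves changed more than their number. Of the 365 members, from 291 (without all first replicates) to 341 (without the second drought library) were among them. Members reduced at least 2-fold went from 77 to 31 with TMM and 28 with median-of-ratios CPM, and raised rows from 79 to 147 and 149, both chosen after seeing the data, as was the restriction to members with close replicates. The members' share of scaled counts was 1.75% in normal with TMM or median-of-ratios CPM, 2.17% in drought with the latter, and 1.07% and 1.08% in recovery.

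In the fit of all 8 libraries, 136 members were called higher and 3 lower in drought. That fit called 255 members lower against normal and 348 lower against drought. Its osbzip23 rows may not correspond to the wild type rows. With library size scaling 15 members were called lower in drought. Leaving out 1 library gave 192 to 225 called higher and 3 to 10 called lower in drought, 334 to 362 lower against normal, and 360 to 364 lower against drought. The median log2 fold change against normal was -0.86 with library size scaling, and -0.69 to -0.66 with a library left out. Against drought it was -1.15 with library size scaling and -1.004 with median-of-ratios scaling and -1.005 with DESeq2, and -1.05 to -1.02 with a library left out. Between drought and normal it was 0.27 with library size scaling and 0.32 with all 8 libraries, and 0.33 to 0.36 with a library left out.

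With the replicate number as a replicate block, 359 members were called lower against normal, 364 lower against drought, 231 higher and 7 lower in drought. Deviations of same-numbered libraries correlated at -0.02, 0.07 and -0.03 between the pairs of groups, so the numbers were not taken to pair the samples. Among the named rows, signs turned in those that follow, and members not named were not examined row by row. OsMH_09G0260700 went to -0.57 between drought and normal with the block. With a library left out its log2 fold change ran from -2.0 to 1.02 between drought and normal and from -12.73 to 0.54 for recovery against drought, where the lowest value rests on a recovery group of 0 counts and is no bound. OsMH_01G0487300 ran from -0.30 to 1.501 between drought and normal and from -1.51 to 0.30 for recovery against normal, by the normal library left out. OsMH_05G0260400 ran from -0.30 to 0.77 between drought and normal, by the drought library left out. The cause of these differences was not tested. The scarcest member in recovery held 140 counts summed over both libraries.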
